A study of Mus musculus with 10 samples.

Results

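The respiratory chain genes were read in blood RNA of mice kept from sleep, and the genes that the cell nucleus encodes were set beside those that the mitochondrion encodes. Members were the protein-coding genes whose symbols follow the naming of the chain's subunits (Nduf followed by a, b, c, s or v and a digit, the 4 Sdh genes, Uqcr, Cox4 to Cox8, Atp5, and the mitochondrial Nd, Co, Cytb and Atp genes). The table of 32285 genes held 97 of them, 84 nuclear and 13 mitochondrial. Complex I had 35 nuclear and 7 mitochondrial members, complex II 4 nuclear, complex III 8 nuclear and 1 mitochondrial, complex IV 20 nuclear and 3 mitochondrial, and complex V 17 nuclear and 2 mitochondrial. Ndufa4 and Ndufa4l2, named for complex I but tied to complex IV, were counted with complex IV, as was Cox7a2l. Another matching symbol, Ndufb1-ps, was not annotated as protein-coding and was left out.

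The 10 libraries came from blood of C57/BL6J mice, labelled as leukocytes, with no transgene or mutation named. Mice underwent sleep deprivation (SD) for 6, 12, 24 or 48 h, or sleep restriction by a method described before (SASD), for 6, 12, 24, 48 or 120 h, and a control group (Con) was taken at 0 h. Each group was 1 library of RNA from 3 mice, drawn from behind the eye under pentobarbital into EDTA. The sources used here do not say how mice were kept awake in either method or at what clock time blood was drawn.

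The respiratory chain sits in the inner mitochondrial membrane. Complexes I and II take electrons from NADH and succinate, complex III passes them to cytochrome c, complex IV hands them to oxygen, and complex V makes ATP from the proton gradient that complexes I, III and IV build. Complex II is encoded by the nucleus alone, whereas the other complexes need subunits from both genomes, transcribed by different polymerases. Mature mammalian red cells have no mitochondria, while reticulocytes, platelets and white cells carry them in different amounts.

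Several mitochondrial genes have copies in the nuclear genome, and the sequences are shown because pairs that map to several places were not counted. The opening stretch of mt-Co2, a catalytic subunit of complex IV, is shown first (chrM:7013-7132, plus strand, GRCm38), then that of its annotated unprocessed pseudogene Gm28661 (chr1:24615446-24615565, minus strand). The same is shown for mt-Nd3, a complex I core subunit (chrM:9459-9558, plus strand), and Gm28438 (chr1:24613020-24613119, minus strand). They were read from GENCODE vM21 transcripts, 5′ to 3′, and a capital marks a base that differs between a gene and its copy.
mt-Co2: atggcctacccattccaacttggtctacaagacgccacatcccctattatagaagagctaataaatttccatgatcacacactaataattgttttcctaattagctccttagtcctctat
Gm28661: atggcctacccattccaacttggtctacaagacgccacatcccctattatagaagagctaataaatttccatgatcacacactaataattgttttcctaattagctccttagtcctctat
mt-Nd3: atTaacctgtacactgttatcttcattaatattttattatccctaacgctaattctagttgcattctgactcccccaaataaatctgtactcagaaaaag
Gm28438: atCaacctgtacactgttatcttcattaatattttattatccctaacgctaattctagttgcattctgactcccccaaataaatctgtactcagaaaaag
The mt-Co2 pair was identical over all 681 bases of the copy, and the mt-Nd3 pair differed at 1 of 345 bases.

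The copies form a run on the minus strand of chromosome 1. Gm10925 (chr1:24613974-24614651) matched mt-Atp6 at 678 of 678 bases, Gm28437 (chr1:24613189-24613971) matched mt-Co3 at 783 of 783, and Gm10222 (chr1:24612407-24612700) matched mt-Nd4l at 294 of 294. Gm28439 (chr1:24611535-24612410) matched the opening 876 of the 1378 bases of mt-Nd4. Gm29216 (chr1:24615706-24616197) matched the closing 492 bases of mt-Co1 at 486 positions. The authors' counting left out read pairs that map to several places, per the file headers, and the sources used here do not state the read length. Cut into windows of 50 bases, mt-Co2 shared 100% of its windows with an annotated transcript of another gene, mt-Co3 99.9%, mt-Atp6 99.5%, mt-Nd4l 98.8%, mt-Nd3 98.0%, mt-Nd4 62.2% and mt-Co1 51.1%. The share was 8.19% for mt-Nd2, 7.61% for mt-Nd5 and 0% for mt-Nd1, mt-Nd6, mt-Cytb and mt-Atp8. mt-Atp8 lies between mt-Co2 and mt-Atp6, and the stretch of chromosome 1 between their copies carries no annotated transcript, so it was not compared.

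The counts of the 13 mitochondrial genes fell into separate ranges. mt-Co1, mt-Cytb, mt-Nd5, mt-Nd1, mt-Nd2, mt-Nd4 and mt-Nd6 had between 4754 and 171157 read pairs in a library. mt-Nd3, mt-Co3, mt-Co2, mt-Nd4l, mt-Atp6 and mt-Atp8 had between 0 and 270. Together the 6 low genes made up at most 0.163% of the mitochondrial counts of any library, so every sum below rests on the other 7. The 5 genes with at least 98.0% of windows shared were all among the 6 low ones, and the sixth was mt-Atp8. The part of shared sequence in the low counts was not tested. The 7 genes with many counts were set apart after their values were seen, and the levels of the 6 low genes do not tell how much RNA of them was present. mt-Atp8 also overlaps mt-Atp6, and mt-Nd4l overlaps mt-Nd4, and pairs on overlapping genes were not counted either.

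**Figure D1:**
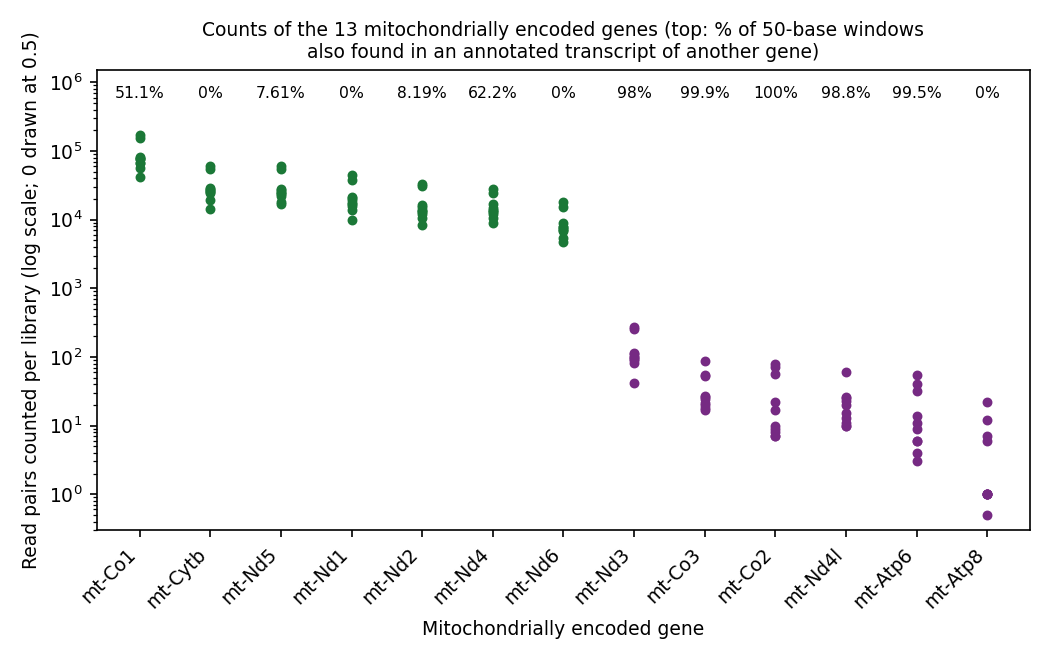
Read pairs counted for each mitochondrially encoded gene (x axis) in each of the 10 libraries (y axis, log scale, 1 point per library), with the percentage of the gene's 50-base windows found in an annotated transcript of another gene along the top. The 7 genes at the left lie at or above 4754 in every library and the 6 at the right at or below 270.

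Total counts ran from 7825120 (SASD 24 h) to 27501393 (Con), and all of the leukocyte, neutrophil, monocyte, B cell, T cell, NK cell, platelet and erythroid markers listed had counts in every library. Haemoglobin genes took 0.316% of counts in SD 48 h, 0.275% in SASD 48 h and 0.727% in Con, against 3.57% to 6.96% in the other 7 libraries. The same 3 libraries had counts for 19.8%, 38.4% and 53.1% of 1134 olfactory receptor genes at equal depth, against 2.38% to 4.32% in the others. At each shared time the SD and the SASD library lay in the same set, so SD against SASD was a comparison within sets, whereas Con shared its set with the 48 h libraries alone.

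Per kilobase of annotated exon, mt-Co1, the catalytic core of complex IV, had the highest level of all members, with a mean of 4141 TMM-scaled CPM (read counts scaled to equal library size) per kb over the 10 libraries and a range of 3468 to 4875. mt-Cytb, the haem-bearing core of complex III, followed at 1983 CPM per kb, mt-Nd1 at 1650, mt-Nd6 at 1275, mt-Nd5 at 1212, mt-Nd2 at 1187 and mt-Nd4 at 870.0. The range of mt-Co1 over the libraries lay above all others, while each of the following genes overlapped its neighbours in this order. mt-Nd6 is the only protein that the light strand of mouse mitochondrial DNA encodes, and since the counting used no strand its reads cannot be parted from antisense ones. mt-Co1 and mt-Nd4 share sequence with copies over a large part of their length, which was not removed from the length used. The nuclear member with the highest level was Cox6a1, the widely expressed form of a complex IV subunit, at 139 CPM per kb (92.1 to 172), followed by Atp5a1, the alpha subunit of the ATP synthase head, at 119.9 (111 to 131), within the range of Cox6a1.

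At the low end of the nuclear members tested were Ndufb2, a complex I membrane-arm subunit, at 1.86 CPM per kb and Atp5s, a coupling factor that is no subunit of the synthase, at 2.39. Exon length was the union of all annotated isoforms, so a gene with a long annotated isoform is set low on this scale. Members of complex II, which links the chain to the citric acid cycle, averaged 51.0 (Sdha, the flavoprotein), 21.8 (Sdhb, the iron-sulphur subunit), 10.01 (Sdhc) and 30.5 CPM per kb (Sdhd, which anchors the enzyme in the membrane together with Sdhc). Sdha varied least of all nuclear members tested, its highest library being 1.09 times its lowest.

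Of subunits with tissue-specific forms, the widely expressed form had the higher level. Cox4i1 averaged 67.7 CPM per kb against 0.212 for Cox4i2, the form known from lung. Cox6a1 stood at 139 against 0.511 for Cox6a2, the heart and muscle form, and Cox7a2 at 29.1 against 4.93 for Cox7a1, also a heart and muscle form. Cox7a2l, which takes part in joining complexes III and IV, stood at 115 CPM per kb. Cox6b1 had 67.8 against 5.84 for Cox6b2, the testis form. Cox8a had 109, whereas Cox8b had 0.0436 and Cox8c 0.0717, and Ndufa4 had 33.4 against 0.0303 for Ndufa4l2, a form known to respond to low oxygen. The 3 genes for the membrane-ring subunit c of complex V, which give the same mature protein, had 27.3 (Atp5g3), 25.5 (Atp5g2) and 3.95 CPM per kb (Atp5g1), and Atp5g2 shared 38.3% of its windows with other transcripts. Cox7b2 had no count in any library, where 3 counts correspond to 0.0942 to 0.465 CPM. It and Cox4i2, Cox6a2, Cox8b, Cox8c and Ndufa4l2 had a mean count under 10 and were not tested, which left 78 nuclear members.

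Cox4i2 was counted in only 3 libraries, with 4 read pairs in SD 48 h, 5 in SASD 48 h and 39 in Con. The other 7 libraries had 0, where 3 counts correspond to 0.279 to 0.465 CPM. Those are the 3 libraries low in haemoglobin and high in olfactory receptor genes, and the part of that split in the counts was not tested.

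The mitochondrial members took 1.64%, 1.60%, 1.21% and 1.38% of all counts in SD 6, 12, 24 and 48 h, against 1.79%, 1.69%, 1.34% and 1.49% in SASD at the same hours, 1.84% in SASD 120 h and 1.52% in Con. The SD share was the lower at each of the 4 times, by more than the exact Clopper-Pearson 95% intervals. Their bounds were at most 0.00829 percentage points away, and they cover counting error only. These were shares of raw counts, and at 48 h the order depended on scaling. In TMM-scaled CPM the 7 mitochondrial genes with many counts summed to 13045 in SD 48 h and 12949 in SASD 48 h. The nuclear members took 0.382%, 0.389%, 0.376% and 0.478% of counts in SD at 6, 12, 24 and 48 h, against 0.366%, 0.392%, 0.308% and 0.454% in SASD, 0.454% in SASD 120 h and 0.430% in Con. In a bulk sample, fewer cells of a type and less RNA per cell cannot be told apart.

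The ratio of mitochondrial to nuclear members does not depend on scaling between libraries. On the log2 scale it was 1.82 in Con, then 2.11, 2.04, 1.69 and 1.53 at 6, 12, 24 and 48 h of SD. In SASD it was 2.29, 2.11, 2.12, 1.72 and 2.02 at 6, 12, 24, 48 and 120 h. SD lay below SASD at each shared time, and within SD each later time lay below the one before it. SASD was also lower at 48 h than at 6 h. It kept no strict order, but its 12 h and 24 h values (2.110 and 2.120) had overlapping counting intervals. SASD 120 h has no SD partner, and both 48 h libraries lie in the set low in haemoglobin. The intervals of these ratios reached at most 0.0203 to either side. SD minus SASD came to -0.18, -0.07, -0.43 and -0.19 at 6, 12, 24 and 48 h, a mean of -0.22 ± 0.15 (standard deviation over n = 4 times), and to -0.15 without the 24 h pair. All 4 differences lay below 0 as well when non-subunits were left out (mean -0.22), when medians of the members' log2 CPM replaced sums (-0.24) and without the most counted gene of each origin (-0.27).

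**Figure D2:**
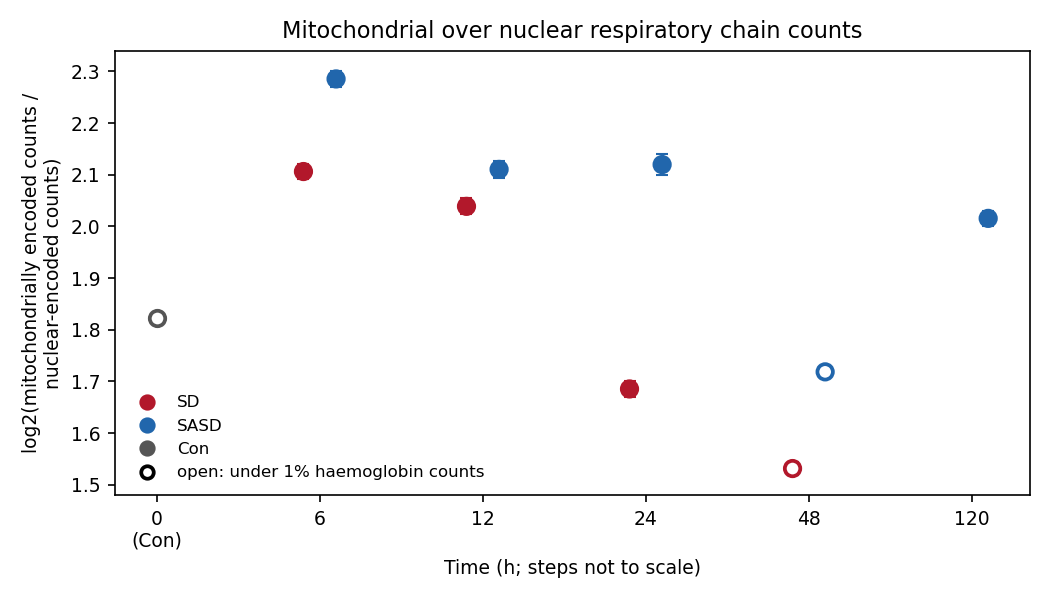
The log2 of mitochondrially encoded over nuclear-encoded counts (y axis) by time in hours (x axis, steps not to scale), 1 point per library with its exact 95% counting interval, open where haemoglobin genes took under 1% of counts. At 6, 12, 24 and 48 h the SD point lies below the SASD point, and the difference at 24 h is -0.43.

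Taken apart, the sums of the 2 origins differed between SD and SASD in different measure at different times. The summed CPM of the 7 mitochondrial genes stood at a log2 SD over SASD of -0.15, -0.07, -0.36 and 0.01 at 6, 12, 24 and 48 h. The summed CPM of the nuclear members stood at 0.03, 0.003, 0.07 and 0.20. At 6, 12 and 24 h the mitochondrial sum was the farther from equality, and at 48 h the nuclear one. By complex at 48 h, nuclear members of complex I summed to 1136 CPM in SD against 987 in SASD, and those of complex IV to 923 against 744. At 24 h the mitochondrial members of complex I summed to 5447 CPM in SD against 7557 in SASD.

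Neutrophil markers stood higher in SD too. All 6 of them (S100a8, S100a9, Csf3r, Cxcr2, Mmp9 and Retnlg) had estimates above 0 for SD against SASD, with a median log2 of 1.38. At an unadjusted p under 0.05 all 6 passed, and at an edgeR adjusted p under 0.05 none did. Their summed CPM ran from 2880 to 10535 in SD, against 1969 to 2607 in SASD at the same hours and 2107 in Con. Monocyte and T cell markers lay above 0 as well, 4 of 4 each with medians of 0.25 and 0.20, and B cell and NK cell markers below it, with 0 of 4 and 0 of 3 above 0 and medians of -0.06 and -0.12. Platelet markers summed to 4614, 5508, 3337 and 2398 CPM in SD at 6, 12, 24 and 48 h, against 5857, 6121, 8389 and 1235 CPM in SASD and 2381 CPM in Con. The platelet sum was lower in SD at 6, 12 and 24 h, by the widest margin at 24 h, and higher in SD at 48 h. The summed CPM of the 7 mitochondrial genes was also lower in SD at 6, 12 and 24 h and stood near equality at 48 h. In SASD 120 h the platelet sum was 2629 CPM, near that of Con, while mitochondrial members took 1.84% of counts, against 1.52% in Con. Those libraries lie in different haemoglobin sets (3.57% of counts in SASD 120 h and 0.727% in Con), so their difference cannot be told apart from that split. Erythroid markers summed to 3206 to 72960 CPM in SD, against 2551 to 93983 in SASD at those hours and 6743 in Con. None of the listed markers was at 0 in any library. The part of these cells in the values of the respiratory chain genes was not tested.

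Tested over the 4 shared times with time as a block, SD and SASD differed in no member at an edgeR adjusted p under 0.05 (0 of 78 nuclear and 0 of 12 mitochondrial members tested). Of all 13370 genes tested, 0.0% were called by edgeR and 0 by limma-voom, while DESeq2 called 169 genes and 0 members. At an unadjusted p under 0.05, 8.09% of all genes passed, 6.07% upward and 2.03% downward. Of the nuclear members 13 of 78 passed upward and 0 downward, and of the 7 mitochondrial genes with many counts none passed. The smallest edgeR adjusted p of a member was 0.382, for Ndufb9.

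In direction, 70 of 78 nuclear members (89.7%) had an estimate above 0, against 49.2% of all genes tested, and their median log2 SD over SASD was 0.14, against -0.003 for all genes. None of the 7 mitochondrial genes lay above 0, and their estimates ran from -0.23 to -0.09 with a median of -0.19. Members were read in the same libraries, so their signs are not independent observations, here and in the fits below. Leaving out each time in turn, the nuclear median ran from 0.10 to 0.16 and the mitochondrial one from -0.26 to -0.10, the value nearest 0 coming without the 24 h pair in both. SD lay above SASD at every one of the 4 times for 21 of 78 nuclear members, where 8.56% of all genes did, and below at every time for 0 nuclear members and 3 of the 7 mitochondrial genes (mt-Nd2, mt-Nd4 and mt-Cytb), where 6.59% of all genes did.

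**Figure D3:**
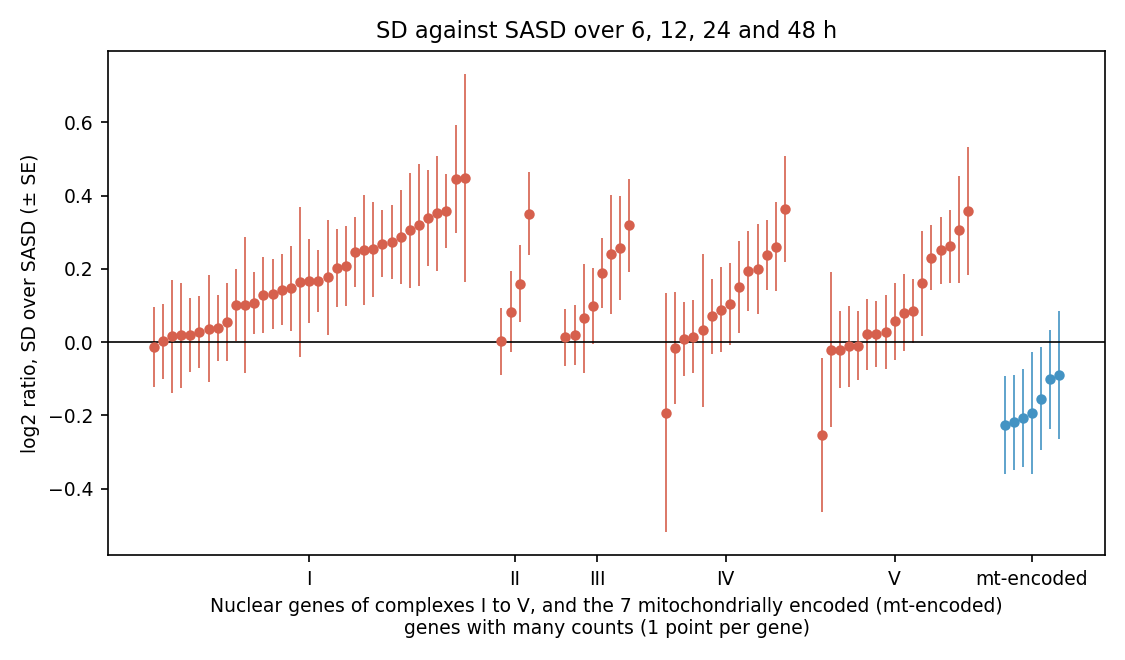
Log2 SD over SASD from the edgeR fit over 4 times (y axis, ± SE), 1 point per tested gene, for nuclear members by complex and for the 7 mitochondrially encoded genes with many counts (x axis). The median is 0.14 for nuclear members and -0.19 for the mitochondrial ones, and no gene passed an adjusted p under 0.05.

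Among the complexes, nuclear members of complex I had a median log2 of 0.17, with 34 of 35 above 0 and 6 at an unadjusted p under 0.05. Complex II had 0.12 with 4 of 4 above 0, complex III 0.14 with 8 of 8, complex IV 0.10 with 12 of 14 and complex V 0.06 with 12 of 17. These medians were not tested against each other.

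Ndufa8, an accessory subunit of complex I (chr2:36036326-36049406, minus strand), stood at 18.0 CPM in Con and at 22.0, 24.9, 25.9 and 30.7 CPM in SD at 6, 12, 24 and 48 h. In SASD it stood at 20.2, 19.0, 13.2, 23.9 and 21.6 CPM at 6, 12, 24, 48 and 120 h. Each SD library lay above the SASD library of its hour, and Con lay below all 4 SD libraries. The log2 SD over SASD was 0.45 ± 0.15 (± SE here and below; edgeR adjusted p = 0.494).

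Sdhd, the complex II anchor (chr9:50596357-50603812, minus strand), had 31.3 CPM in Con and 37.5, 40.2, 37.1 and 56.7 CPM in SD at 6, 12, 24 and 48 h. In SASD it had 35.2, 35.2, 25.6, 38.0 and 38.3 CPM at 6, 12, 24, 48 and 120 h. SD 48 h stood apart above the rest, and at 48 h the SD over SASD ratio was 1.49 (95% counting interval 1.36 to 1.63). The log2 SD over SASD was 0.35 ± 0.11 (edgeR adjusted p = 0.467), whereas for the other complex II genes it was 0.16 ± 0.10 (Sdhb), 0.08 ± 0.11 (Sdhc) and 0.003 ± 0.09 (Sdha), all with an edgeR adjusted p of at least 0.743.

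Ndufb9, a membrane-arm subunit of complex I singled out here for its p-value, had 22.1 CPM in Con, 25.6, 27.8, 24.3 and 32.8 CPM in SD, and 19.2, 22.3, 17.7, 27.5 and 25.9 CPM in SASD in order of time. SD was the higher at each shared hour, and the log2 SD over SASD was 0.36 ± 0.10 (edgeR adjusted p = 0.382). Ndufc1, a small complex I subunit with few counts, had the highest nuclear estimate, 0.45 ± 0.28 (edgeR adjusted p = 0.740). At 24 h it had 71 read pairs in SD and 13 in SASD, a scaled ratio of 3.30 (1.81 to 6.5), and without that pair the estimate was 0.16. Cox7c, a small complex IV subunit, had 0.36 ± 0.15 (edgeR adjusted p = 0.585), and 22.1% of its windows occur in other transcripts, mostly a transcribed pseudogene.

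At the other end stood Atp5e, the epsilon subunit in the stalk of ATP synthase (chr2:174461072-174464105, minus strand). It had 113 CPM in Con, then 166, 161, 118 and 104 CPM in SD at 6, 12, 24 and 48 h. SASD gave 208, 173, 243, 76.5 and 126 CPM at 6, 12, 24, 48 and 120 h. SD lay below SASD at 6, 12 and 24 h and above it at 48 h, so the groups did not keep an order. Its log2 SD over SASD was -0.25 ± 0.21 (edgeR adjusted p = 0.798) and 0.003 without the 24 h pair, at which the ratio was 0.485 (0.450 to 0.523). Cox7a1 had -0.19 ± 0.33 (edgeR adjusted p = 0.902) on counts of 20 to 48 in the 8 libraries of the fit, and 0.13 without the 6 h pair. Atp5s had -0.02 ± 0.21 (edgeR adjusted p = 0.987).

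mt-Nd4, a core subunit in the membrane arm of complex I, stood at 886 CPM in Con, then at 1324, 1334, 989.5 and 820.0 CPM in SD, and at 1621, 1395, 1377, 866 and 1377 CPM in SASD in order of time. SD was the lower at every shared hour, and its log2 SD over SASD of -0.23 ± 0.13 was the lowest of the 7 (edgeR adjusted p = 0.721). mt-Nd5 had 1904 CPM in Con, 2403, 2393, 1672 and 1902 CPM in SD, and 2602, 2430, 2636, 1893 and 2269 CPM in SASD. SD and SASD lay far apart at 24 h, with a ratio of 0.635 (0.621 to 0.648), and close together at 48 h with 1.01 (0.991 to 1.02). mt-Co1 had 5375 CPM in Con, 7198, 6790, 5359 and 5614 CPM in SD, and 7531, 7260, 6449, 5358 and 7050 CPM in SASD, an estimate of -0.09 ± 0.17 (edgeR adjusted p = 0.917).

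The other estimates were -0.22 ± 0.13 for mt-Nd2 (edgeR adjusted p = 0.721), -0.21 ± 0.13 for mt-Nd6 (0.742), -0.19 ± 0.17 for mt-Nd5 (0.806), -0.15 ± 0.14 for mt-Cytb (0.820) and -0.10 ± 0.13 for mt-Nd1 (0.877). Within a library, mt-Co1 made up 39.7% to 43.0% of mitochondrial counts and mt-Nd6 4.02% to 4.54%. mt-Nd4 varied in its share, with 12065 of 192259 mitochondrial read pairs in SD 48 h and 16905 of 197838 in SASD 6 h.

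**Figure D4:**
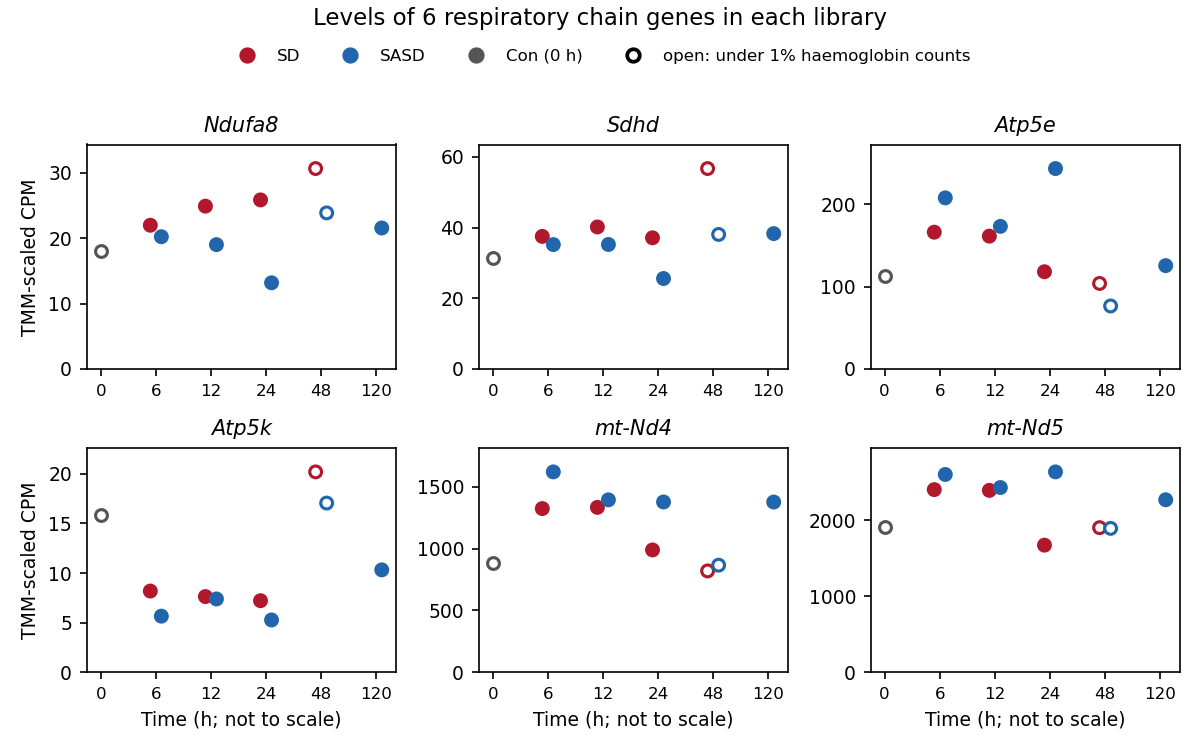
TMM-scaled CPM (y axes from 0) of 6 members by time in hours (x axes, not to scale), 1 point per library, open where haemoglobin genes took under 1% of counts. Ndufa8 and Sdhd reach 30.7 and 56.7 CPM in SD 48 h, Atp5k is highest in the 3 open libraries, and mt-Nd4 and mt-Nd5 are lower in SD than in SASD at 24 h.

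At single times there was 1 library per group and hence no test. At 6 h the nuclear members tested had a median log2 SD over SASD of 0.04, with 47 of 78 above 0, and the 7 mitochondrial genes one of -0.23. At 12 h the medians were 0.02 for nuclear members, with 43 of 78 above 0, and -0.06 for mitochondrial genes. At 24 h they were 0.29 for nuclear members, with 65 of 77 above 0, and -0.39 for mitochondrial genes, and at 48 h 0.23, with 65 of 78 above 0, and 0.01. Across all genes 50%, 48.9%, 50.7% and 50.2% lay above 0 at 6, 12, 24 and 48 h. Of the nuclear members 60.3%, 55.1%, 84.4% and 83.3% did. Their share was thus above that of all genes at each time, and by more at 24 and 48 h than at 6 and 12 h. The 24 h pair includes SASD 24 h, the library with the fewest counts. SASD 24 h also had the lowest scaling factor (0.825) and the lowest level of most nuclear members tested.

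**Figure D5:**
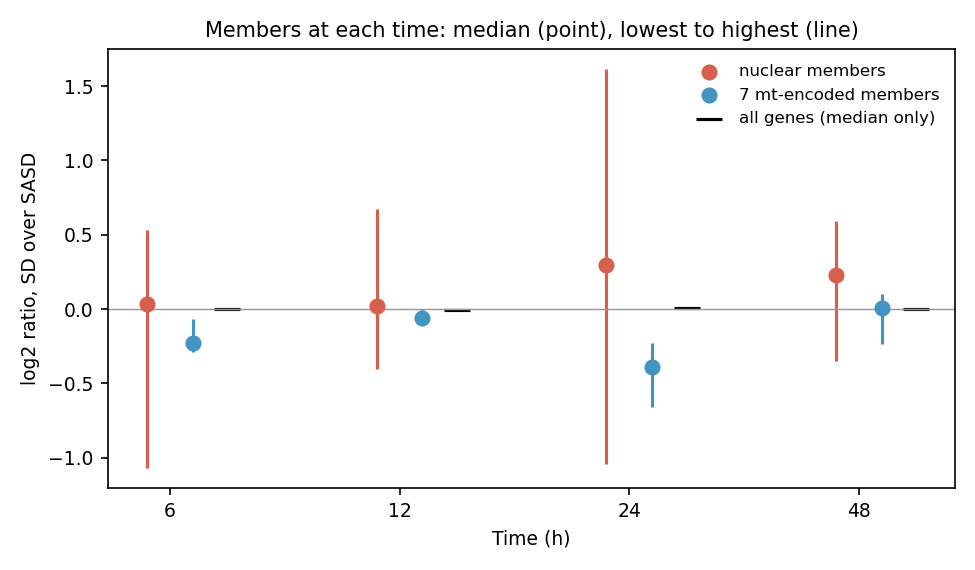
Median (point) and lowest to highest (line) log2 SD over SASD (y axis) at 6, 12, 24 and 48 h (x axis) for nuclear members and the 7 mitochondrially encoded genes, with the median of all genes as a dash. The medians of the 2 origins lie farthest apart at 24 h, at 0.29 and -0.39.

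Few members differed 2-fold or more between the libraries of an hour, at 6 h in a share near that of all genes. Such differences were found in 1.01%, 2.82%, 6.81% and 5.94% of all genes at 6, 12, 24 and 48 h. Among nuclear members they were 1 of 78 at 6 h, 0 of 78 at 12 h and 0 of 78 at 48 h. The one at 6 h was Cox7a1, with 22 read pairs in SD and 48 in SASD and a ratio of 0.455 (interval 0.262 to 0.768). At 24 h, of 77 nuclear members, Ndufc1 differed upward and Atp5e downward. The highest ratios were 1.46 for Ndufa5 and 1.45 for Atp5k at 6 h, 1.65 for Cox7a1 and 1.34 for Uqcr11 at 12 h, 3.30 for Ndufc1 and 1.97 for Atp5mpl at 24 h, and 1.51 for Ndufa11 and 1.49 for Sdhd at 48 h. The lowest were 0.455 for Cox7a1 and 0.800 for Atp5e at 6 h, 0.753 for Ndufb5 and 0.800 for Atp5j at 12 h, 0.485 for Atp5e and 0.653 for Cox6b2 at 24 h, and 0.781 for Ndufb4 and 0.893 for Ndufb2 at 48 h. Of these, the counting interval reached 1 for Cox7a1 at 12 h and for Ndufb4 and Ndufb2 at 48 h.

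Along time, the slope was taken per unit of log2(1 + hours/6), from Con through 48 h of SD or 120 h of SASD. Both trends share Con. In the SD trend edgeR called 18 of 14562 genes (0.124%) and 0 members, limma-voom 69 genes and 0 members, and DESeq2 456 genes and 1 member, Ndufa8. Of the nuclear members 72 of 78 had a slope above 0, against 46.3% of all genes, with a median of 0.09, and at an unadjusted p under 0.05 there were 7 upward and 0 downward, where of all genes 10.4% passed, 6.88% upward and 3.52% downward, so the members' share lay near that of all genes. The 7 mitochondrial slopes were all below 0, with a median of -0.07. Without SD 48 h the medians were 0.03 for nuclear members and -0.01 for mitochondrial genes. Neutrophil and monocyte markers also had slopes above 0, in 6 of 6 and 4 of 4 genes, and their part was not tested.

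The steepest SD slopes were 0.23 ± 0.05 for Ndufa8 (edgeR adjusted p = 0.196), 0.23 ± 0.06 for Sdhd (0.307) and 0.22 ± 0.07 for Uqcrq, a small complex III subunit (0.355). A further fit added a term for the libraries low in haemoglobin, which in this trend are Con and SD 48 h, its first and last times. That term leaves fewer residual degrees of freedom. In it Ndufa8 and Sdhd had edgeR adjusted p-values of 0.0351 and 0.0484 and were called. The same fit called 796 of all 14562 genes, 629 of them upward. The lowest nuclear slopes were -0.25 ± 0.13 for Atp5s, -0.09 ± 0.12 for Atp5e and -0.04 ± 0.07 for Cox5a, a matrix-side subunit of complex IV, each with an edgeR adjusted p of at least 0.580. The mitochondrial slopes ran from -0.10 ± 0.11 for mt-Nd2 to -0.03 ± 0.12 for mt-Co1, with edgeR adjusted p-values of at least 0.790.

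In the SASD trend edgeR, limma-voom and DESeq2 each called 0 of 14602 genes, edgeR 0.0%, and 3.03% had an unadjusted p under 0.05 (1.2% upward and 1.84% downward), none of them a nuclear member or one of the 7 mitochondrial genes. Nuclear slopes had a median of 0.04 with 69 of 78 above 0, against 46.7% of all genes, and a median of 0.0003 without SASD 120 h. Assembly factors lay above 0 in 36 of 44 genes and mitochondrial transcription and RNA care in 25 of 30 in the same fit. The mitochondrial slopes lay between -0.004 and 0.02. The highest nuclear slopes were 0.17 ± 0.08 for Ndufb4, 0.12 ± 0.10 for Ndufb6, both in the membrane arm of complex I, and 0.10 ± 0.10 for Uqcrb of complex III. The lowest were -0.12 ± 0.08 for Cox5a, -0.10 ± 0.16 for Atp5e and -0.09 ± 0.06 for Ndufa3. All 6 had an edgeR adjusted p of 0.9999.

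The difference of the trends, SD slope minus SASD slope over the hours both have, was called for 58 of 14138 genes by edgeR (0.41%), all upward, for 122 by limma-voom and for 272 by DESeq2, and for 0 members in each. Nuclear members had a median of 0.07 with 70 of 78 above 0, against 46.4% of all genes, and at an unadjusted p under 0.05 there were 6 upward and 0 downward, where of all genes 7.58% passed, 5.57% upward and 2.0% downward, again near the members' share. The 7 mitochondrial genes were all below 0, with a median of -0.08, and -0.03 without the 24 h pair. Neutrophil markers lay above 0 in this fit in 6 of 6 genes, 3 of them called by edgeR (S100a8, S100a9 and Retnlg, with edgeR adjusted p-values of 0.0255 to 0.0267), as did 4 of 4 monocyte and 4 of 4 T cell markers, and their part was not tested. The highest members were 0.20 ± 0.07 for Ndufa8 (edgeR adjusted p = 0.499), 0.18 ± 0.14 for Ndufc1 (0.889) and 0.18 ± 0.06 for Sdhd (0.487). The lowest were -0.14 ± 0.15 for Atp5e, -0.04 ± 0.09 for Atp5s and -0.03 ± 0.21 for Cox7a1, with edgeR adjusted p-values of at least 0.929.

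Promoters are shown for Ndufa8 and Sdhd, which were among the 3 highest nuclear members in more than 1 of these fits, and for Atp5e, which was among the 3 lowest in all 4. Ndufc1, which also met that rule and rests on few counts, held none of the motifs searched and is not shown. Nuclear respiratory factor 1 (NRF1) and ETS factors such as GABP are known regulators of respiratory chain genes. The windows reach from 250 bases before to 50 after the RefSeq start (GRCm38.p6): Ndufa8 chr2:36049289-36049588, Sdhd chr9:50603800-50604099 and Atp5e chr2:174464052-174464351, all on the minus strand, 5′ to 3′. Capitals mark matches to GCGC, any 2 bases and GCGC, an NRF1 form with a free middle, and to CCGGAAG, an ETS core, on either strand.
Ndufa8: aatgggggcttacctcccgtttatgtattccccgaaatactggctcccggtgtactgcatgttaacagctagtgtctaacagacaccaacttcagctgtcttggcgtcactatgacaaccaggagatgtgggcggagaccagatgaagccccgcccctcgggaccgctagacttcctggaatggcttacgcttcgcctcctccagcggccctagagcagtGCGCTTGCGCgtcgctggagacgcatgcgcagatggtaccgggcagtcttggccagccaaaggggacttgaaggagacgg
Sdhd: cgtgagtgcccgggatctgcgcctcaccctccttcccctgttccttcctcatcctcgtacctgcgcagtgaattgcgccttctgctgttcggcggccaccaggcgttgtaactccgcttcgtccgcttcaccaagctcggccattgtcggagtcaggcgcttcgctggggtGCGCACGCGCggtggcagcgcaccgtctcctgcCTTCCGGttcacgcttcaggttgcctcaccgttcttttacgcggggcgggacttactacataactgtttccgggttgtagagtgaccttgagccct
Atp5e: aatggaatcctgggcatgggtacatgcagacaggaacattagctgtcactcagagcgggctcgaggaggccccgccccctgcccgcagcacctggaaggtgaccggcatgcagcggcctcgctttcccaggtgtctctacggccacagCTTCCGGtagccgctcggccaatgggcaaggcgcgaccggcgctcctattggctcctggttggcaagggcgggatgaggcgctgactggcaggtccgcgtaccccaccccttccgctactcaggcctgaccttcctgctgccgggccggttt
Ndufa8 held the NRF1 form, Sdhd both and Atp5e the ETS core.

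Of the 84 nuclear members 68 matched a RefSeq promoter, and letters were searched on both strands. The NRF1 form with a free middle was found in 18 of 68 (26.5%), against 7% of 27025 genes with a promoter. Its stricter form with AT in the middle, whose matches are a subset, was found in 5 (7.35%), against 1.07%: Ndufa11, Uqcrc1, Cox6a1, Atp5g2 and Atp5k. CCGGAAG was found in 16 (23.5%), against 9.93%, and a form of the YY1 site (AAGATG directly followed by GCGG) in 5 (7.35%), against 0.995%: Ndufa9, Ndufs4, Ndufs6, Ndufs7 and Atp5j. The genes compared were all those with a promoter, not matched for base composition. A match of letters is a description and not a bound site.

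Other genes that serve the chain were counted in the same way for SD against SASD. Assembly factors, which put the complexes together, had a median log2 of 0.002 with 22 of 44 above 0. Genes of mitochondrial transcription and RNA care had 0.005 with 17 of 30 above 0, enzymes of the citric acid cycle 0.001 with 7 of 13 and nuclear regulators such as Nrf1 and Gabpa -0.05 with 3 of 9. ATP and proton handling had 0.07 with 5 of 8, and a list of cytochrome c (Cycs), the complex III subunit Cyc1 and the complex I acyl carrier Ndufab1 had 0.18 with 2 of 3. Cyc1 (0.18 ± 0.14) and Ndufab1 (-0.18 ± 0.14) are chain subunits whose symbols fall outside the naming used for members. None of these genes was called in edgeR, and the medians were not tested against that of the nuclear subunits. Slirp, a partner of Lrpprc in keeping mitochondrial mRNA stable, was the only gene of these lists with an unadjusted p under 0.05, at 1.17 ± 0.41 (edgeR adjusted p = 0.537). Lrpprc stood at -0.17 ± 0.10 (0.716), Tfam, which packs mitochondrial DNA, at 0.002 ± 0.10 (0.997) and the polymerase gene Polrmt at -0.10 ± 0.09 (0.813). In the SD trend, assembly factors had a median of 0.01 with 27 of 44 above 0 and mitochondrial transcription and RNA care -0.04 with 10 of 30, while ATP and proton handling had 0.05 with 7 of 8 and the citric acid cycle 0.03 with 10 of 13. Nuclear regulators had -0.02 with 3 of 9 and the cytochrome c list 0.06 with 2 of 3 in that fit.

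Members were also read across the split of libraries by haemoglobin. Among 78 nuclear members, 11 were higher in SD 48 h, SASD 48 h and Con than in any of the other 7 libraries, where 8.15% of all genes were, and 7 were lower, where 9.1% were, a share near that of all genes. The median log2 of these 3 libraries over the other 7 was 0.17 for nuclear members and -0.37 for the 7 mitochondrial genes, against 0.04 for all genes. Atp5k, the e subunit by which ATP synthase forms dimers, had 20.2 CPM in SD 48 h, 17.0 in SASD 48 h and 15.9 in Con, against 5.27 to 10.3 CPM in the other 7. Atp5l, the g subunit next to it in the membrane, had 17.6, 18.6 and 18.3 CPM in the 3 libraries, against 34.3 to 43.8 CPM in the others. Of the mitochondrial genes mt-Nd4 alone was lower in all 3, at 820.0 to 886 CPM, against 989.5 to 1621 CPM in the other 7. Atp5k and Atp5l were chosen for naming after their values were seen, and since the split coincides with 48 h and with Con, what sets it cannot be told apart from time.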

How the data were processed

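Blood RNA of 10 groups of mice was sequenced, 1 library per group, each from 3 mice. Trimming by Trimmomatic 0.39 and alignment to mm10 by STAR 2.7.9a stand in the submitters' processing notes. Per the file headers, the deposited counts are raw read pairs per gene over exons from featureCounts 2.0.3 with a 10x Genomics mm10 gene set, without strand, and without pairs that map to several places or overlap several genes. All 10 columns matched a label.

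Here 32235 of the 32285 genes matched GENCODE vM21, which gave positions, exon lengths and gene types and may differ from the authors' gene set. Genes averaging 10 or more counts in a fit were tested with edgeR 4.0.16 (R 4.3.3), TMM scaling, the quasi-likelihood test and Benjamini-Hochberg adjustment over all genes at 0.05. SD against SASD used 8 libraries and blocked time (residual degrees of freedom 3). The trends used 5 libraries (3) and 6 libraries (4), and their difference used 9 (6). With 1 pooled library per group, p-values measure the spread between these libraries and times, which may be partly technical. SE is the estimate divided by the root of its F. The fits were also run on simulated counts with known changes of 2-fold or more. That simulation gave all genes a common dispersion and left out the haemoglobin split. It therefore does not tell how the fits handle smaller changes in these libraries.

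Single-time medians used a prior count of 2 and genes averaging 25 or more counts in the pair. Ratios of single genes used no prior, with exact Clopper-Pearson 95% intervals (scipy 1.17.1). Alternatives were DESeq2 1.42.0, limma-voom 3.58.1, other scalings, no count minimum, linear hours, a term for the libraries low in haemoglobin, leaving out libraries, other prior counts and other members.

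Of the nuclear members 35 share no 50-base window with another annotated transcript, 19 share over 10%, and exons of 26 overlap another counted gene, so their counts are less certain. Prorp was not analysed here. Members and gene lists were chosen with earlier results of these data known. Named were the mitochondrial members, the Sdh genes, tissue forms, the extremes in CPM per kb, the 3 highest and 3 lowest nuclear members of each fit, the 2 highest and 2 lowest at each time, and any called member. Olfactory receptor detection was read after thinning each library to 7825120 counts.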

Additional observations from a re-analysis of the deposited data

How the results depend on the processing

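Across the alternatives, 179 of 181 summary values stayed on their side of the threshold or within their spread. Where a time or library was left out, that spread was computed from the same values, so staying within it was nearly fixed in advance. Of 507 gene estimates, 488 kept both their sign and their side of the threshold, 16 turned sign and 3 came to be called. Members called in the SD trend numbered 1 with DESeq2 (Ndufa8) and 2 with a term for the libraries low in haemoglobin (Ndufa8 and Sdhd), against 0. Over all genes, calls ran from 0 to 389 in SD against SASD (389 with no count minimum), 0 to 796 in the SD trend (796 with the haemoglobin term), 0 to 1 in the SASD trend and 0 to 272 in the difference of trends (272 with DESeq2), against 0, 18, 0 and 58 as reported.

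Estimates that turned sign were all far from the threshold. With limma-voom, Atp5s stood at 0.0043 in SD against SASD and Cox7a1 at 0.043 in the difference of trends. Leaving out each time in turn, the SD against SASD estimate ran from -0.20 to 0.10 for Atp5s (highest without 24 h, also above 0 without 48 h), from -0.51 to 0.13 for Cox7a1 and from -0.47 to 0.0032 for Atp5e. The SD slope ran from -0.19 to 0.016 for mt-Co1 (above 0 without SD 6 h and without SD 48 h), from -0.35 to 0.10 for mt-Nd4 and from -0.34 to 0.055 for Atp5e (both highest without SD 48 h), and from -0.089 to 0.0030 for Cox5a (highest without SD 24 h). The SASD slope of Ndufb6 ran from -0.051 (without SASD 120 h) to 0.29. The difference of trends ran from -0.14 to 0.044 for Cox7a1, from -0.31 to 0.049 for Atp5e and from -0.077 to 0.0094 for Atp5s, all above 0 without 24 h. The cause was not tested. The groups carry no replicate numbers, so no replicate block was fitted; SD and SASD were paired by hour in the fit as reported. With 1 library per group and 3 to 6 residual degrees of freedom in the fits as reported, small differences of single genes are not detectable here.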

Other observations

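Ndufb1-ps, not annotated as protein-coding although its symbol follows a complex I subunit, was counted at the level of many nuclear members. It had 24.5 CPM in Con, then 13.8, 14.8, 16.2 and 32.7 CPM in SD at 6, 12, 24 and 48 h, and 12.9, 14.1, 10.7, 28.0 and 18.2 CPM in SASD at 6, 12, 24, 48 and 120 h. It was highest in the 3 libraries low in haemoglobin, as Atp5k was. mt-Nd6, encoded on the light strand opposite the region that follows mt-Nd5, had a count per kilobase 0.978 to 1.16 times that of mt-Nd5 in the 10 libraries.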
